A study of Mus musculus with 4 samples.

Results

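The genes described here are the chemokines and their receptors as measured in EO771, a mouse mammary carcinoma cell line. Members were taken by symbol. They are every gene whose platform symbol is Ccl, Cxcl, Ccr, Cxcr or Ackr followed directly by a digit, plus Xcl1, Cx3cl1, Cx3cr1, Pf4 and Ppbp, where a probe set was annotated to that gene alone. The rule found 57 of 22180 genes, namely 36 ligands (19 CC, 15 CXC, and Xcl1 and Cx3cl1) and 21 receptors, of which 4 are atypical. All 57 were kept, since no filter on low values was applied. For a gene with several probe sets the one with the highest mean over the 4 arrays was used, which concerned 1 member, Ccl27a.

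One group of 2 arrays came from EO771 cells given A-FABP at 100 ng/ml. This is the mouse fatty acid binding protein of fat tissue, encoded by Fabp4 and supplied as a recombinant protein. The other 2 arrays came from EO771 cells given PBS, the control named in the series design. All cultures were grown for 24 hours to at least 70% confluence beforehand, and no genotype, allele or other agent is named for either group. The titles call the arrays of a group biological replicates. The free-text description of the controls repeats the A-FABP treatment, against their titles, source names and the design. How long the cells were treated is not stated in these sources, and both groups rest on 1 cell line, so the p-values measure only the spread between these cultures.

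Chemokines are small secreted proteins, grouped by the spacing of their first cysteines into CC, CXC, XC and CX3C types, that direct the migration of cells carrying matching receptors. The receptors span the membrane several times and signal through inhibitory G proteins, while the atypical receptors bind chemokines without that signalling and take them up. Tumour cells commonly secrete ligands for monocytes and neutrophils, and NF-kB, AP-1 and interferon-activated factors are the best known activators of those genes. Receptors such as Ccr2 or Cxcr2 are in most tissues carried by leukocytes.

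To show what the best known of these genes hold upstream of their start, RefSeq promoter sequences (GRCm38.p6, 250 bases before to 50 bases after the start) were matched by symbol for 43 of the 57 members. Ccl2, Ccl4, Ccl5, Ccl7, Ccl11, Ccl24, Ccl26, Ccr7, Ccr10, Cxcl5, Cxcl11, Cxcl16, Cxcl17 and Cxcr5 have no entry. Printed are stretches before the start of the neutrophil attractants Cxcl1, Cxcl2 and Cxcl3, which are neighbouring paralogs on chromosome 5, and of the interferon-inducible Cxcl10. Capitals mark an NF-kB site form (GGGA, any base, then TTTCC) in the first 3 genes. In Cxcl10 they mark an interferon response element form (GAAA, any 2 bases, then GAAA) and, further on, an AP-1 form (TGANTCA). Only these exact forms were searched, so NF-kB sites spelled otherwise are not marked. Lower case in Cxcl10 therefore does not mean that it lacks such sites.
Cxcl1, chr5:90891125-90891244, + strand: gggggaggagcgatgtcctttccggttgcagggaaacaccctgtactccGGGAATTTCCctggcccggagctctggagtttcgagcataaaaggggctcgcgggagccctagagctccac
Cxcl2, chr5:90903779-90903898, + strand: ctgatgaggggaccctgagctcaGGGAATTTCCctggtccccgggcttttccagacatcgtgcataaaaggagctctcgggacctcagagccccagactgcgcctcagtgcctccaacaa
Cxcl3, chr5:90785981-90786100, + strand: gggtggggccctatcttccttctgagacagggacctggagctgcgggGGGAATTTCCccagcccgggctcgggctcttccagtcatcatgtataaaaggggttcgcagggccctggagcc
Cxcl10, chr5:92348950-92349109, - strand: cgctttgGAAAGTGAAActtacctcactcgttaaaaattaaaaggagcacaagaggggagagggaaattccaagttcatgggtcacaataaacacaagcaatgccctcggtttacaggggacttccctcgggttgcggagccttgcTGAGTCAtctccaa
The NF-kB form begins 71 bases before the start in Cxcl1, 97 in Cxcl2 and 73 in Cxcl3, with the same 10 letters in all 3. On both strands it was found in 4 of the 43 members (Ccr3 is the other) and in 0.411% of the 32851 promoters in the table. The interferon form was found in Cxcl10 and Cxcl14 and in 3.44% of all promoters. The AP-1 form was found in 9 members and in 7.81% of all promoters, and the searched forms do not overlap one another in the printed stretches. A match is a stretch of letters, and binding was not measured here.

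Of the members, 45 lay below 0 and 12 above in the difference of A-FABP minus PBS, which is given throughout on the log2 scale with its standard error (SE) or 95% confidence interval (CI) from limma. The median difference was -0.13 (quartiles -0.25 and -0.06), against -0.01 over all 22180 genes. It ran from -0.56 for Cxcl11 to 0.49 for Ackr4, and no member reached a 1.5-fold difference. No member, and no probe set among all 41345 (0.0%), passed a limma adjusted p of 0.05. The lowest adjusted p among the members was 0.296, and 6258 probe sets had an unadjusted p under 0.05. At that unadjusted level 11 members were lower and 1 was higher (19.3% and 1.75% of the members), beside background shares over all genes of 8.24% lower and 4.81% higher. These are shares of a list chosen with earlier results known and carry no test of their own. The A-FABP arrays were both below the PBS arrays in 30 members (52.6%, against 27.5% of all genes), and above them in 4 (7.02%, against 26.0% of all genes). For any single gene the smallest two-sided p of an exact permutation test with this many arrays is 0.333.

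**Figure D1:**
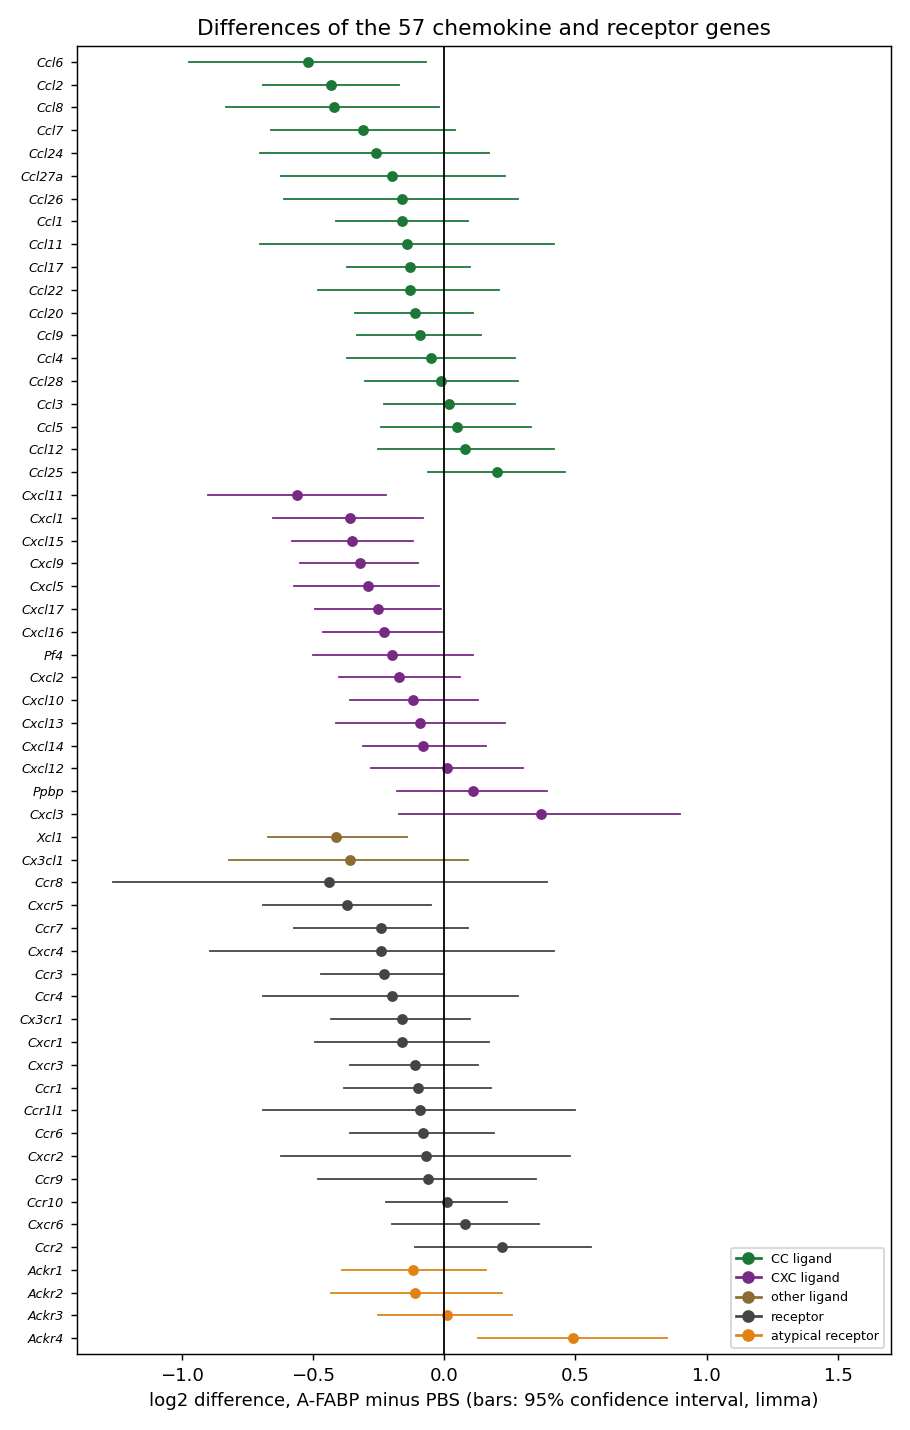
Log2 difference (A-FABP minus PBS, x axis) of each of the 57 genes, by class, with bars for the 95% confidence interval of the limma fit on 2 arrays per group. Most points lie left of 0, from -0.56 (Cxcl11) upward, and Ackr4 (0.49) is the only gene to the right of 0 whose interval leaves out 0.

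The difference of a gene also went with its signal. Over all genes with a mean log2 signal under 7 the median difference was -0.11, and over those at 7 and above it was 0.06. The 47 members under 7 had a median of -0.13, with 9 lower at the unadjusted level (19.1%, against 13.0% of all genes in that range). In 24 of them the groups did not overlap and A-FABP was the lower one (51.1%, against 37.7%). The 10 members at 7 and above (Ccl2, Ccl3, Ccl5, Ccl7, Ccl25, Cxcl1, Cxcl2, Cxcl10, Cx3cr1 and Ackr3) had a median of -0.14. In 6 of these 10 the groups did not overlap with A-FABP the lower one (60.0%, against 12.9% of all genes of that range). At the unadjusted level 2 were lower (20.0%, against 1.52% of all genes there). After the trend of differences on signal level was subtracted, the median over the 57 genes was -0.05.

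**Figure D2:**
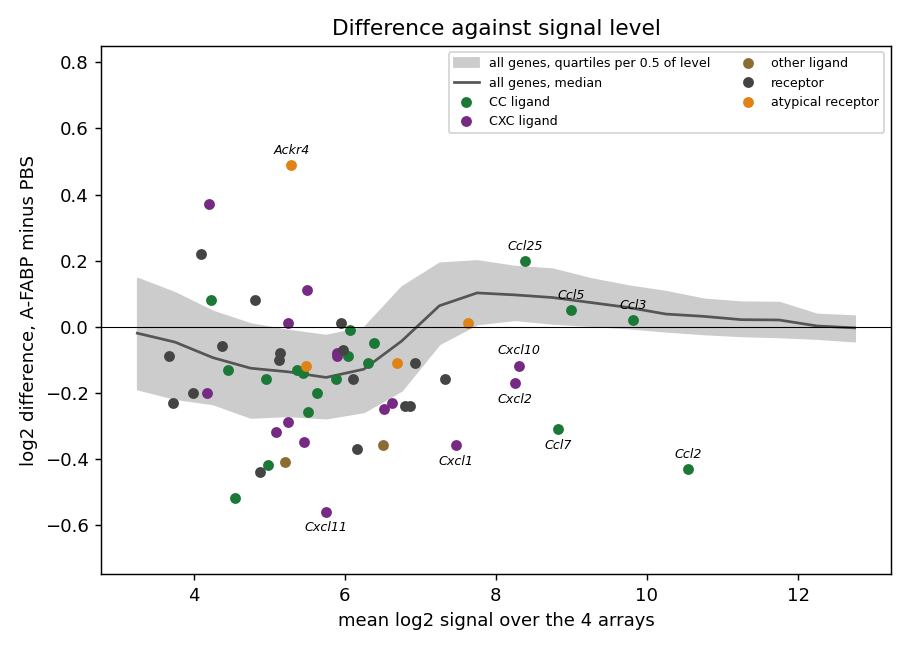
Log2 difference (A-FABP minus PBS, y axis) against the mean log2 signal over the 4 arrays (x axis). The line and band are the median and quartiles of all genes per 0.5 of signal, and points are the 57 members by class. Most members with a signal under 7 lie near the band, with Cxcl11 (-0.56) and Ccl6 (-0.52) among those below it and Ackr4 (0.49) above it. At 7 and above, Ccl2 (-0.43), Ccl7 (-0.31), Cxcl1 (-0.36), Cxcl2 (-0.17), Cx3cr1 (-0.16) and Cxcl10 (-0.12) lie below it. Ccl25 (0.20) lies just above it.

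Ccl2 encodes MCP-1, the main attractant of monocytes, and is 1 of 4 members with a mean signal above the 75th percentile of all genes. It read 10.38 and 10.28 with A-FABP against 10.71 and 10.81 with PBS. Both A-FABP arrays were below both controls, by more than the spread within either group (SD 0.07 in each). The difference was -0.43 ± 0.09 SE (95% CI -0.69 to -0.17), or 1.35-fold lower, at an unadjusted limma p of 0.0101 and an adjusted p of 0.296. It ranged from -0.48 to -0.36 over 12 other ways of processing the values. Ccl7, which encodes the related monocyte attractant MCP-3 and is the next gene to Ccl2 on chromosome 11, read 8.73 and 8.60 with A-FABP against 8.85 and 9.10 with PBS. Its groups did not overlap either, and the difference was -0.31 ± 0.13 SE (95% CI -0.66 to 0.04). It was -0.19 without PBS control replicate 2 and -0.44 without PBS control replicate 1.

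The other genes of the same stretch of chromosome 11 gave weaker signals. Ccl8, which encodes MCP-2, read 4.60 and 4.93 with A-FABP against 5.24 and 5.14 with PBS, a difference of -0.42 ± 0.15 SE. Its A-FABP arrays had an SD of 0.23, and its difference was -0.26 without A-FABP replicate 1. Ccl1, a ligand of Ccr8, lay at -0.16 ± 0.09 SE. Ccl11, which encodes the eosinophil attractant eotaxin, read 5.63 and 5.13 against 5.46 and 5.58, and Ccl12, which encodes the monocyte attractant MCP-5, read 4.34 and 4.19 against 4.29 and 4.08. In these last 2 genes the groups overlapped. Over the 6 genes of this stretch (Ccl2, Ccl7, Ccl11, Ccl12, Ccl8 and Ccl1) 5 lay below 0 and the median was -0.23. The share below 0 was 83.3%, against 52.4% of all genes and 69.8% of those under a signal of 7. MCP genes are paralogs of similar sequence, and signal shared between their probe sets was not tested.

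Ccl3, Ccl4 and Ccl5, ligands of Ccr1 and related receptors on monocytes and T cells, lie further along chromosome 11 with Ccl6 and Ccl9. Ccl3, which encodes MIP-1 alpha, read 9.78 and 9.89 with A-FABP against 9.77 and 9.85 with PBS. Ccl5, which encodes RANTES, read 9.08 and 8.95 against 9.04 and 8.90. In both genes the groups overlapped, with differences of 0.02 (95% CI -0.23 to 0.27) and 0.05 (-0.24 to 0.33), and the sign of both turned under other scalings. Ccl4, which encodes MIP-1 beta, read 6.49 and 6.25 against 6.41 and 6.42, and Ccl9 lay at -0.09 ± 0.08 SE. Ccl6 read 4.47 and 4.08 with A-FABP against 4.79 and 4.80 with PBS. Its A-FABP arrays were below both controls but had an SD of 0.28 in a dim range, and the difference was -0.52 ± 0.16 SE (-0.32 without A-FABP replicate 2). The 5 genes together had a median of -0.05, with 2 above 0. Whether the stretch around Ccl2 differs from the stretch around Ccl3 was not tested.

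Of the remaining CC ligands, Ccl25 gave the most signal. It encodes TECK, a ligand of Ccr9 that draws lymphocytes to thymus and gut, and read 8.57 and 8.42 with A-FABP against 8.28 and 8.30 with PBS. Here the A-FABP arrays were above both controls, at 0.20 ± 0.09 SE (95% CI -0.06 to 0.46). Ccl20, the ligand of Ccr6, read 6.24 and 6.25 against 6.32 and 6.40, with a difference of -0.11 ± 0.08 SE. Ccl17 and Ccl22, ligands of Ccr4, both lay at -0.13, and Ccl24 and Ccl26, eosinophil attractants, at -0.26 and -0.16. For the epithelial chemokines, Ccl28 lay at -0.01 and Ccl27a at -0.20 with overlapping groups in both. The other Ccl27a probe set lay at 0.13, and the values of the one used are repeated by 2 further rows of the table that list several genes. Ccl19, Ccl21a, Ccl21b, Ccl21c, Ccl21d and Ccl27b had no probe set of their own and are not analysed here. At an unadjusted p under 0.05, 3 of the 19 CC ligands (Ccl2, Ccl6 and Ccl8) were lower and 0 were higher. This share of 15.8% stands beside 8.24% of all genes. It was 13.0% of all genes under a signal of 7, where Ccl6 and Ccl8 lie, and 1.52% of those at 7 and above, where Ccl2 lies.

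Among CXC ligands, Cxcl1, which encodes the neutrophil attractant KC, read 7.24 and 7.35 with A-FABP against 7.58 and 7.73 with PBS. Both A-FABP arrays were below both controls, and the difference was -0.36 ± 0.10 SE (95% CI -0.65 to -0.08), or 1.29-fold lower, at an unadjusted limma p of 0.0238 and an adjusted p of 0.299. Over 12 other ways of processing it ranged from -0.44 to -0.29. Cxcl2, which encodes MIP-2 and has the same receptor, Cxcr2, read 8.15 and 8.19 with A-FABP against 8.30 and 8.37 with PBS. Its groups did not overlap, and the difference was -0.17 ± 0.08 SE (-0.40 to 0.06). Cxcl3, the third gene with the NF-kB form printed above, read 4.41 and 4.35 with A-FABP against 3.77 and 4.25 with PBS. In this dim gene the A-FABP arrays were the higher ones, by 0.37 ± 0.19 SE (-0.17 to 0.90), and the controls lay far apart from one another. The 3 genes that share those letters lay on both sides of 0.

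Cxcl1, Cxcl2 and Cxcl3 are part of a row of 7 neighbouring genes on chromosome 5. Cxcl5, which encodes the neutrophil attractant LIX, read 5.03 and 5.18 against 5.35 and 5.44, a difference of -0.29 ± 0.10 SE. Cxcl15, which encodes lungkine, read 5.29 and 5.28 against 5.68 and 5.59, a difference of -0.35 ± 0.08 SE. Both were below their controls on each A-FABP array, in a range of signal where the median gene was also lower. Pf4 and Ppbp, the platelet chemokines, lay at -0.20 and 0.11, the latter with overlapping groups. Of the 7 genes 5 lay below 0 (71.4%, against 52.4% of all genes and 69.8% of those under a signal of 7), and the median was -0.20. At an unadjusted p under 0.05, 3 were lower (Cxcl1, Cxcl5 and Cxcl15). This is 42.9%, against 8.24% of all genes and 13.0% of those under a signal of 7.

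Cxcl9, Cxcl10 and Cxcl11, ligands of Cxcr3 that are induced by interferon gamma and attract T and NK cells, neighbour each other elsewhere on chromosome 5. Cxcl10, which encodes IP-10 and gave the most signal of the 3, read 8.30 and 8.19 with A-FABP against 8.40 and 8.33 with PBS. Its arrays did not overlap, but the gap was small and the difference was -0.12 ± 0.09 SE (95% CI -0.36 to 0.13). It was -0.06 without A-FABP replicate 2, -0.08 without PBS control replicate 1, -0.05 with the arrays centred on their medians and -0.19 with the trend on signal removed. Cxcl11 read 5.60 and 5.34 against 6.03 and 6.03, the lowest difference of all members at -0.56 ± 0.12 SE (95% CI -0.90 to -0.22), at an unadjusted limma p of 0.0104 and an adjusted p of 0.296. RefSeq lists Cxcl11 of the reference mouse as a transcribed pseudogene. Cxcl9, which encodes MIG, read 4.95 and 4.90 against 5.28 and 5.22, a difference of -0.32 ± 0.08 SE. All 3 lay below their controls, and Cxcl9 and Cxcl11 did so in the dim range whose median gene was lower too.

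The other CXC ligands included a pair made by epithelia and macrophages. Cxcl16, the membrane-bound ligand of Cxcr6, read 6.52 and 6.50 against 6.78 and 6.69, and Cxcl17, a mucosal chemokine, read 6.36 and 6.44 against 6.61 and 6.69. Neither pair of groups overlapped, with differences of -0.23 ± 0.08 SE and -0.25 ± 0.09 SE. Cxcl12, which encodes SDF-1, the ligand of Cxcr4 and Ackr3, read 5.34 and 5.15 against 5.25 and 5.22, a difference of 0.01 (95% CI -0.28 to 0.30). Cxcl13, the B cell attractant, and Cxcl14 lay at -0.09 and -0.08. In all, 6 of 15 CXC ligands were lower at an unadjusted p under 0.05 (40.0%, against 8.24% of all genes and 13.0% of those under a signal of 7) and 0 were higher, and the class median was -0.20.

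Xcl1, which encodes lymphotactin of T and NK cells, read 4.94 and 5.07 with A-FABP against 5.37 and 5.46 with PBS, a difference of -0.41 ± 0.09 SE. Its A-FABP arrays were below both controls. Cx3cl1, which encodes the membrane-bound fractalkine, read 6.12 and 6.52 against 6.66 and 6.69. Its A-FABP arrays were lower too but apart from one another, and the difference of -0.36 ± 0.16 SE had a 95% CI from -0.82 to 0.09.

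**Figure D3:**
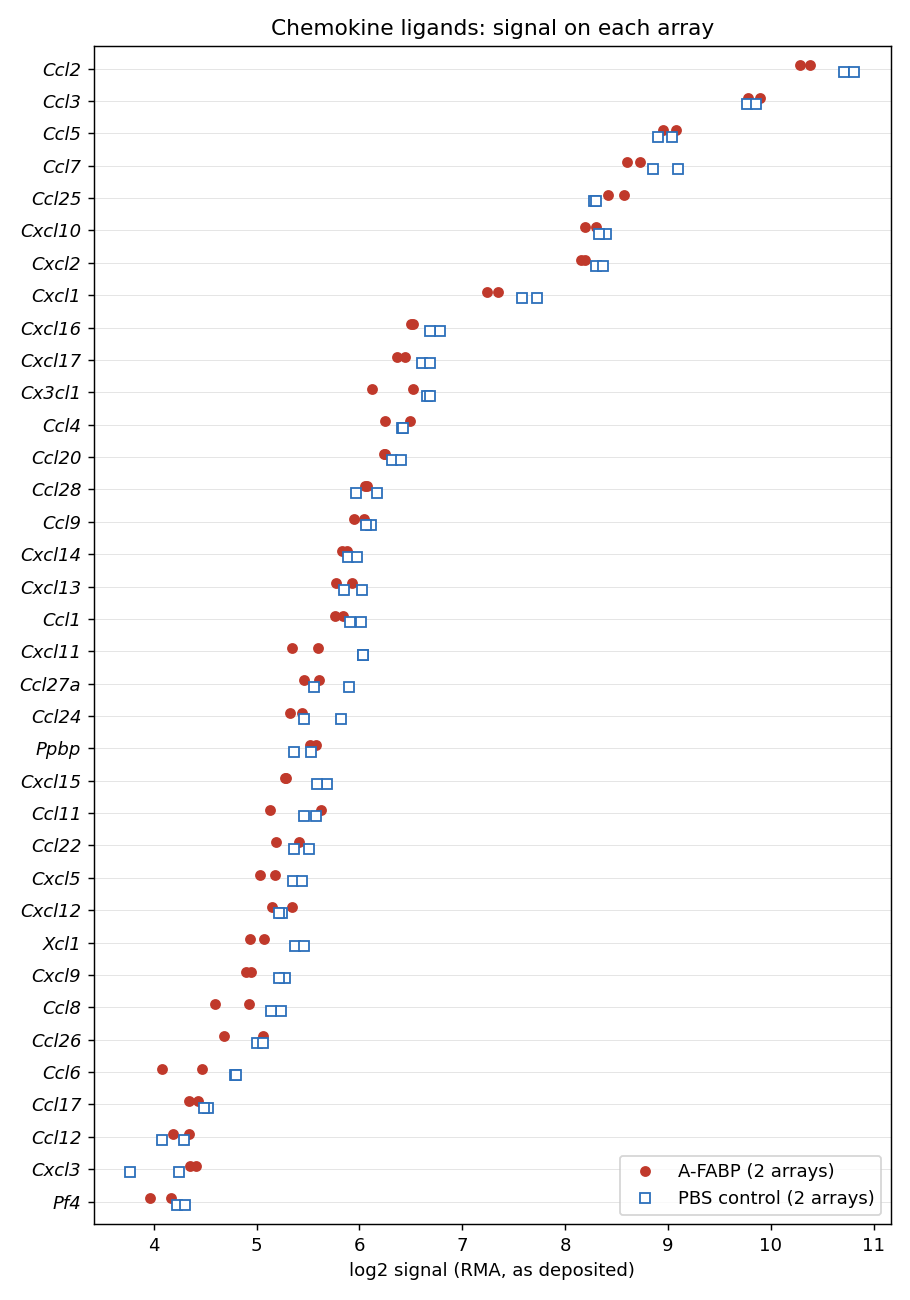
Log2 signal (x axis) of the 36 ligand genes on each array, ordered by mean signal, with filled circles for the 2 A-FABP arrays and open squares for the 2 PBS arrays. Ccl2, Cxcl1, Cxcl11 and Xcl1 show circles clear to the left of the squares, while the Ccl3 and Ccl5 symbols overlap. Probe sets differ in brightness, so the order is one of signal and not of transcript amount.

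Receptors gave less signal than the brightest ligands, with no member above the 75th percentile of all genes, and 14 of 17 signalling receptors lay below 0 (82.4%, with a median of -0.11). All genes under a signal of 7 had the same median, with 69.8% below 0. The median over all 21 receptors overlapped between groups, at 5.44 and 5.67 on the A-FABP arrays and 5.64 and 5.46 on the controls. Cxcr5, the receptor of Cxcl13 on B cells, was the only receptor lower at an unadjusted p under 0.05. It read 6.09 and 5.85 with A-FABP against 6.36 and 6.33 with PBS, a difference of -0.37 ± 0.11 SE (95% CI -0.69 to -0.05), at a limma adjusted p of 0.305. This 1 gene is 4.76% of the 21 receptors, fewer than the 8.24% of all genes and 13.0% of those under a signal of 7. Cx3cr1, the fractalkine receptor, read 7.31 and 7.19 against 7.37 and 7.46, and Cxcr3 read 6.83 and 6.91 against 6.94 and 7.03. In both the groups were apart by little, at -0.16 ± 0.09 SE and -0.11 ± 0.09 SE. Ccr7, which guides cells to lymph nodes, read 6.79 and 6.68 against 7.10 and 6.86, a difference of -0.24 ± 0.12 SE.

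Cxcr4, the receptor of Cxcl12 known from metastasis research, read 6.50 and 6.87 with A-FABP against 7.17 and 6.67 with PBS. The groups overlapped, and the difference of -0.24 had a 95% CI from -0.89 to 0.42. Cxcr2, the receptor of Cxcl1 and Cxcl2, read 6.18 and 5.69 against 6.08 and 5.93, and Cxcr1 read 6.15 and 5.90 against 6.20 and 6.16. Their differences of -0.07 and -0.16 were smaller than the distance between the A-FABP arrays. Ccr8 showed the widest spread, at 4.74 and 4.57 against 5.48 and 4.71, so that its difference of -0.44 rests on 1 control array. Ccr2, the receptor of Ccl2 and Ccl7, was dim at 4.34 and 4.09 against 3.95 and 4.02, with A-FABP above PBS by 0.22 ± 0.12 SE. Ccr3 lay at -0.23 ± 0.08 SE and Ccr1 at -0.10, each with both A-FABP arrays below both controls. Ccr1l1 (-0.09), Ccr4 (-0.20), Ccr6 (-0.08), Ccr9 (-0.06), Ccr10 (0.01) and Cxcr6 (0.08) had overlapping groups.

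The atypical receptors went in no common direction. Ackr4, which takes up the lymph node chemokines of the Ccl19 and Ccl21 type and Ccl25, read 5.40 and 5.67 with A-FABP against 5.10 and 4.99 with PBS. Both A-FABP arrays were above both controls, at 0.49 ± 0.13 SE (95% CI 0.13 to 0.85), or 1.40-fold higher. It was the only member higher at an unadjusted p under 0.05 (limma's unadjusted p was 0.0194 and its adjusted p 0.296), and its value ran from 0.36 to 0.62 over 11 alternatives. The limma unadjusted p was 0.0587 without A-FABP replicate 2, 0.0551 without PBS control replicate 1 and 0.0917 without PBS control replicate 2. Ackr3, the scavenger of Cxcl12, read 7.61 and 7.65 against 7.56 and 7.69, a difference of 0.01 (95% CI -0.25 to 0.26). Ackr1, which binds both CC and CXC chemokines on endothelium and erythroid cells, lay at -0.12 ± 0.10 SE. Ackr2, the scavenger of inflammatory CC chemokines, lay at -0.11 with overlapping groups.

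**Figure D4:**
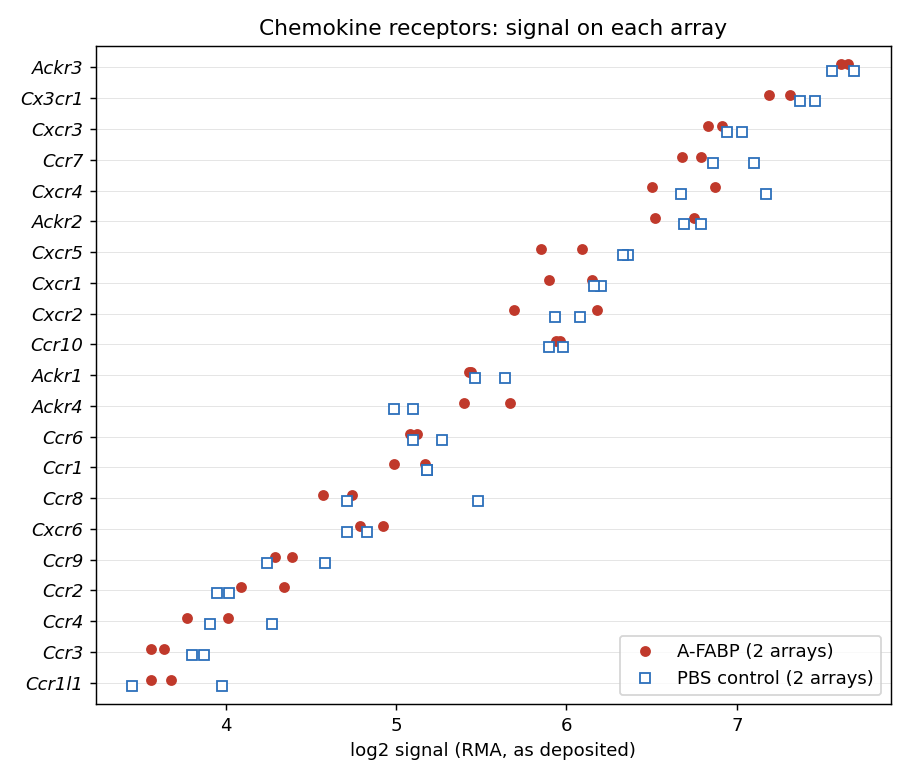
Log2 signal (x axis) of the 21 receptor genes on each array, ordered by mean signal, with filled circles for the 2 A-FABP arrays and open squares for the 2 PBS arrays. Cxcr5 shows circles left of the squares and Ackr4 circles right of them, while Cxcr4, Cxcr2 and Ackr3 overlap. Probe sets differ in brightness, so the order is not one of transcript amount.

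Lists of genes that act before and after chemokines were set beside the members. Among 25 measured regulators of chemokine transcription and mRNA 7 were lower and 0 higher at an unadjusted p under 0.05, with a median of -0.07. The share lower was 28.0%, against 8.24% of all genes and 1.52% of those at a signal of 7 and above, and the list's median signal was 9.54. The list's lowest p-values were those of Nfkbia (11.76 and 11.62 against 12.30 and 12.46) and Tnfaip3 (8.97 and 8.65 against 9.57 and 9.80), feedback inhibitors of NF-kB. They were followed by the AP-1 gene Junb at -0.43 ± 0.08 SE and by Zfp36, whose product speeds decay of inflammatory mRNAs, at -0.48 ± 0.09 SE. The groups did not overlap in any of the 4. Nfkbia and Tnfaip3 were already the leading genes in an earlier look at these values, so they add no independent support.

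Receptors and adaptors that induce chemokines had a median of 0.05, with 6 of 20 below 0 (30.0%). This is near the background of genes as bright, since all genes at a signal of 7 and above had a median of 0.06 with 27.7% below 0. Tlr4, the receptor of bacterial endotoxin, read 8.91 and 9.0 against 8.66 and 8.53, and Tlr3, a sensor of double-stranded RNA, read 6.31 and 6.05 against 5.85 and 5.83. Both had A-FABP above PBS, at 0.36 ± 0.10 SE and 0.34 ± 0.12 SE, and were the 2 of the list that were higher at an unadjusted p under 0.05 (as were 6.66% of all genes at 7 and above), with 0 lower. Cd14, the co-receptor of Tlr4, lay at 0.28 ± 0.13 SE and the kinase gene Irak1 at -0.17 ± 0.08 SE.

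Receptor signalling genes had a median of -0.02 over 30, with 1 higher (the receptor kinase gene Grk5, at 0.23 ± 0.08 SE) and 0 lower at that level. The 1 gene is 3.33% of the list, while over all genes 4.81% were higher and 8.24% lower. Among genes at a signal of 7 and above, where Grk5 lies, 6.66% were higher. Rgs2 and Rgs3, which switch off G proteins, lay at -0.30 and -0.21, and the exchange factor gene Vav1 at 0.26. Genes of chemokine processing and presentation had a median of 0.01 over 17, with 0 lower and 0 higher at that level and 0 past the adjusted threshold. Dpp4, a protease that trims chemokine ends, lay at 0.25, the sheddase gene Adam17 at 0.15, the heparan sulfate enzyme gene Hs2st1 at 0.17 and the heparan sulfate carrier gene Sdc4 at -0.18.

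Of 15 other classical cytokines 3 were higher and 2 lower at an unadjusted p under 0.05 (20.0% and 13.3%, against 4.81% and 8.24% of all genes), with a median of 0.08. Il18 read 8.38 and 8.68 with A-FABP against 8.0 and 8.11 with PBS (0.47 ± 0.14 SE), and the dim Ifnb1 and Il6 lay at 0.27 ± 0.08 SE and 0.41 ± 0.14 SE. Csf1, the growth factor of macrophages, read 10.23 and 10.21 against 10.45 and 10.54 (-0.27 ± 0.08 SE), and Csf2, that of granulocytes and macrophages, lay at -0.31 ± 0.10 SE. No gene of these 5 lists passed the limma adjusted threshold.

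**Figure D5:**
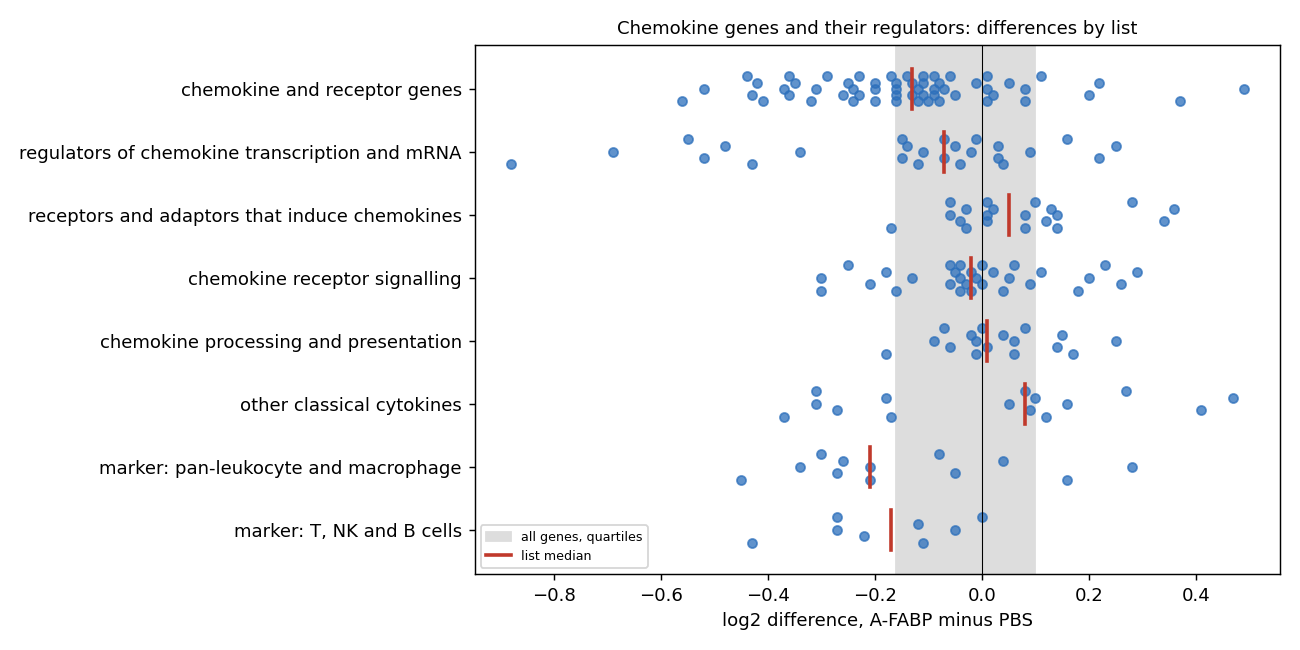
Log2 differences (A-FABP minus PBS, x axis) of the members, of 5 lists of related genes and of 2 lists of leukocyte markers. Each point is a gene, the red bar is the list median, and the grey band spans the quartiles of all genes. The member median is -0.13, that of the inducing receptors 0.05, and that of the macrophage markers -0.21.

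Many chemokine receptors are leukocyte genes, so markers of other cell types were measured on the same arrays. Over 12 pan-leukocyte and macrophage markers, 3 were lower (beside 13.0% of all genes under a signal of 7) and 0 higher at an unadjusted p under 0.05, with a median of -0.21. Their median signal per array was 5.68 and 5.63 with A-FABP against 5.81 and 5.86 with PBS. Ptprc, the pan-leukocyte gene, lay at -0.45 ± 0.12 SE, and Itgam and Tyrobp at -0.34 and -0.27, all in a dim range. Other markers of the list went the other way, with Cd14 at 0.28 and Csf1r at 0.16 with no overlap of the groups, and Lyz2 at 0.04 with overlap. Cd68 was bright on all arrays (12.75 against 12.83 in the group means). T, NK and B cell markers had a median of -0.17, with 8 of 8 below 0 (Cd79a only at -0.00) and 0 at an unadjusted p under 0.05. All 8 had a signal under 7, where 69.8% of all genes lay below 0. Of the labelled epithelial tumour type, Krt8 was clear at 8.80 against 8.79, whereas Epcam read 4.65 against 4.92, below the array medians, and Krt18 5.94 against 6.08, close to them. Krt7 (6.20 against 6.15), Krt19 (5.98 against 6.04) and Cdh1 (6.22 against 6.36) were likewise weaker than Krt8. The fibroblast marker Pdgfra (11.20 against 11.19) and the neutrophil marker S100a8 (10.04 against 10.02) were brighter than Krt8. All other genes of both lists were weaker than Krt8. They ran from Lum (4.68 against 4.49) to Col1a1 (6.87 against 6.68), and from S100a9 (5.11 against 5.31) to Ly6g (6.54 against 5.99). Probe sets differ in brightness, so these levels do not rank transcript amounts. Neutrophil, fibroblast, endothelial and adipocyte markers had median differences of -0.15, 0.10, -0.05 and 0.06. Of these lists, with 5, 6, 6 and 4 measured genes, 3 genes were at an unadjusted p under 0.05. They were the neutrophil gene Ly6g, higher at 0.54 ± 0.15 SE, and the fibroblast gene Col1a2 and the endothelial gene Tie1, lower at -0.26 and -0.29. Over all genes 4.81% were higher and 8.24% lower at that level. Whether such cells were present, and their part in the chemokine values, was not tested. In a bulk culture fewer cells of a type and less RNA per cell cannot be told apart. Nor can either be told from the shift of all genes under a signal of 7 (median -0.11).

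The 4 arrays had medians of 5.95 to 6.03 over all probe sets, and replicates correlated at r = 0.9906 and 0.9914 against 0.9853 to 0.9889 between groups. The median over the 57 members was 5.63 and 5.67 on the A-FABP arrays and 5.89 and 5.90 on the controls. No array stood apart from its replicate in these medians. The number of arrays limits the precision, and the median SE of a member was 0.10.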

How the data were processed

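Total RNA of EO771 cultures was labelled with biotin and hybridised to 4 single-colour arrays, 2 per group, with groups taken from the titles. The authors deposited 1 log2 value per probe set and array. The submitters' processing notes name Partek 6.6 and RMA, a background correction, normalization and probe summary. RMA can compress differences near the background, and its effect on the fold changes of dim genes was not tested here. Differences of dim genes also hold the shift with signal described above. Detection was not called, and how probe sets were defined is not stated in these sources. The platform annotation named 1 gene for 23521 of 41345 probe sets and several for 1814. Differences were fitted with limma 3.58.1 (lmFit, eBayes) and R 4.3.3 on every probe set as deposited, with 2 residual and 1.91 prior degrees of freedom, two-sided p-values adjusted by Benjamini-Hochberg. The fit was tested on simulated data. Values per array are given for Cxcl1, Ccl2, Cxcl10, members above the 75th percentile, members at an unadjusted p under 0.05 and others of a described group, and up to 4 genes of each other list with the lowest p. Members and lists were chosen with earlier results of these data known. Genes of the fixed lists that were not analysed here include Nfkb1, Chuk, Gnb2, Grk2 (also as Adrbk1), Ptk2, Irak4, Ripk1, Ndst1 and Cd74. The alternatives were 3 scalings, a trend removal, a signal filter, another variance model, another probe set rule, a replicate block and leaving out each array. Replicate numbers did not pair the samples (r = -0.00889 between the groups' replicate differences).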

Additional observations from a re-analysis of the deposited data

How the results depend on the processing

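The count of 0 probe sets past the limma adjusted threshold held under all 11 alternatives with a test (3489 to 6876 probe sets at an unadjusted p under 0.05). Of the 16 members named by rule, 14 kept their sign under every alternative that gave a value, and the lowest adjusted p of any of them was 0.158. The exceptions lay near 0. Ccl3 turned to -0.03 under cyclic loess, repeated quantile normalization and trend removal, and Ccl5 to -0.02, -0.03 and -0.03. With an array left out, Ccl3 ran from -0.03 to 0.08 and Ccl5 from -0.02 to 0.11. The member median of -0.13 became -0.07 with median centring and with cyclic loess, -0.10 with repeated quantile normalization, -0.05 with the mean-level trend removed and -0.16 over the members above the median signal. It was -0.17 to -0.10 with an array left out. The count of 11 members lower at an unadjusted p under 0.05 (beside 8.24% of all genes) became 7 with median centring (beside 4.72%) and with cyclic loess (beside 4.79%). It was 6 with the signal filter, which tests fewer genes (beside 6.9% of those kept). With the trend and robust variance model it was 8 (beside 6.42%), and with the other probe set rule 13 (beside 8.3%). With any array left out fewer members were lower at that level, and fewest without PBS control replicate 2. There the share of members was close to that of all genes. Leaving out 1 array also leaves a single array in its group and 1 residual degree of freedom. The count higher was 2 with median centring (beside 8.17% of all genes) and with the trend and robust variance model (beside 8.52%). It was 0 with the signal filter (beside 11.5% of the genes kept). With an array left out the difference of Ackr4 ran from 0.36 to 0.62. The 45 members below 0 became 38 with cyclic loess and with the trend removed, 42 with median centring, 47 with repeated quantile normalization, 41 to 48 with an array left out, and 19 of the 23 that the signal filter keeps. With the replicate number as a block 9 members were lower and 1 higher at an unadjusted limma p under 0.05, without Ccl8 and Cxcl17. Over all genes 6.6% were lower and 3.26% higher in that fit, and no member passed the adjusted threshold. Background flags were not used, so signal near the background limits the dim members.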

Other observations

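Symbols of the rule also occur on 33 probe sets that list several genes, among them the copies of Ccl19, Ccl21 and Ccl27, and such a probe set names no gene here. They hold 23 distinct sets of values, with mean signals of 5.43 to 7.32. A-FABP was lower without overlap of the groups in 20 of the 23 and higher in 1, beside 37.7% and 11.1% of all genes with a signal under 7, and the differences ran from -0.43 to 0.07 with a median of -0.27. Near-identical copies share probes, so these values are not independent of one another.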
